A study of Mus musculus with 18 samples.

Results

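The 9 genes described here take part in adrenergic signalling in the heart, much of it from the cell surface to cyclic AMP (cAMP) and protein kinase A (PKA). They were taken by name from the 34714 genes of the expression table: the receptor genes Adrb1, Adra1a and Adra1b, the receptor kinase gene Grk5, the G protein gene Gnas, the adenylyl cyclase genes Adcy5 and Adcy6, the PKA regulatory subunit gene Prkar1a, and Akip1, whose product binds the catalytic subunit of PKA. All 9 were found, and all 9 passed the filter on low values that left 11937 genes for testing. RNA came from hearts of C57 mice that were wild type or labelled KCP knockout, where Kcp encodes the secreted kielin/chordin-like protein, and that had undergone either sham surgery or TAC (transverse aortic constriction), in which a narrowed aortic arch makes the ventricle pump against high pressure. Wild type had 4 libraries after sham and 5 after TAC, and knockout had 4 and 5. The knockout allele and the age and sex of the mice were not given in the sources used here, and neither was the time after surgery. Whether the libraries are from different mice is not in the labels, and p-values therefore measure only the spread between these samples. The study asked what the loss of Kcp does to the pressure-overloaded heart.

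In the heart, noradrenaline and adrenaline act on beta-1 receptors (Adrb1), which couple through the stimulatory G protein alpha subunit (Gnas) to adenylyl cyclases, of which Adcy5 and Adcy6 encode the main cardiomyocyte forms. The cAMP they make binds the regulatory subunits of PKA and frees its catalytic subunits, which phosphorylate calcium-handling and sarcomere proteins and so raise the rate and force of contraction. Alpha-1 receptors (Adra1a, Adra1b) act instead through Gq and phospholipase C. The kinase encoded by Grk5 phosphorylates activated receptors and so uncouples them, and loss of beta-1 receptors is a known feature of the failing heart.

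Values are FPKM, which are fragment numbers scaled by transcript length and by library size, as deposited, and means ± SD are over the libraries in the model. Changes are differences of log2(FPKM + 1) ± SE from one limma model, with p-values adjusted over all 11937 genes by Benjamini-Hochberg and a threshold of 0.05. Knockout sham replicate 2 carries a library name made of the names of replicates 3 and 4, so it did not enter the model, and its values are shown separately. The library name of knockout TAC replicate 4 also joins a pair of names, neither of which belongs to another library of the series. Kcp was lower in knockout libraries but present, at 0.624 to 0.673 FPKM in knockout sham and 0.494 to 0.952 after TAC, against 0.794 to 1.43 and 0.985 to 1.48 in wild type. The libraries also fell into 2 sets that the labels do not name, shown by Ndufb4c, which was at 35.9 to 49.4 FPKM in all wild-type libraries but TAC replicate 5, and at 4.47 to 11.2 in all knockout libraries and wild-type TAC replicate 5. The genotypes can therefore be compared within a set only after TAC, against that 1 wild-type library. A model term for the library set likewise rests on that library against the other wild-type TAC libraries. Wild-type TAC replicate 5 and knockout TAC replicate 2 were the TAC libraries of their groups nearest to sham on the first principal component. They were picked by their nearness to sham, so leaving them out is no independent test of a TAC change.

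TAC lowered the receptor genes and Adcy6 and raised Grk5 and Prkar1a in both genotypes. In wild type 4 of the 9 genes fell (Adrb1, Adra1a, Adra1b and Adcy6) and 2 rose (Grk5 and Prkar1a). In knockout the same 4 fell, the same 2 rose, and Akip1 rose as well. Adcy5 and Gnas did not pass in either genotype. Of all tested genes 21.9% were called in wild type (10.7% higher, 11.2% lower) and 38.8% in knockout (21.1% higher, 17.7% lower), the background for these 6 and 7 calls. The libraries of TAC and sham did not overlap for 6 of the 9 genes in wild type, where 21.7% of all tested genes showed no overlap, and for 7 of 9 in knockout, where 35.8% did. The 6 calls in wild type were made without each library in turn and under every other alternative run, and in knockout the number called was 7 or 8.

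**Figure D1:**
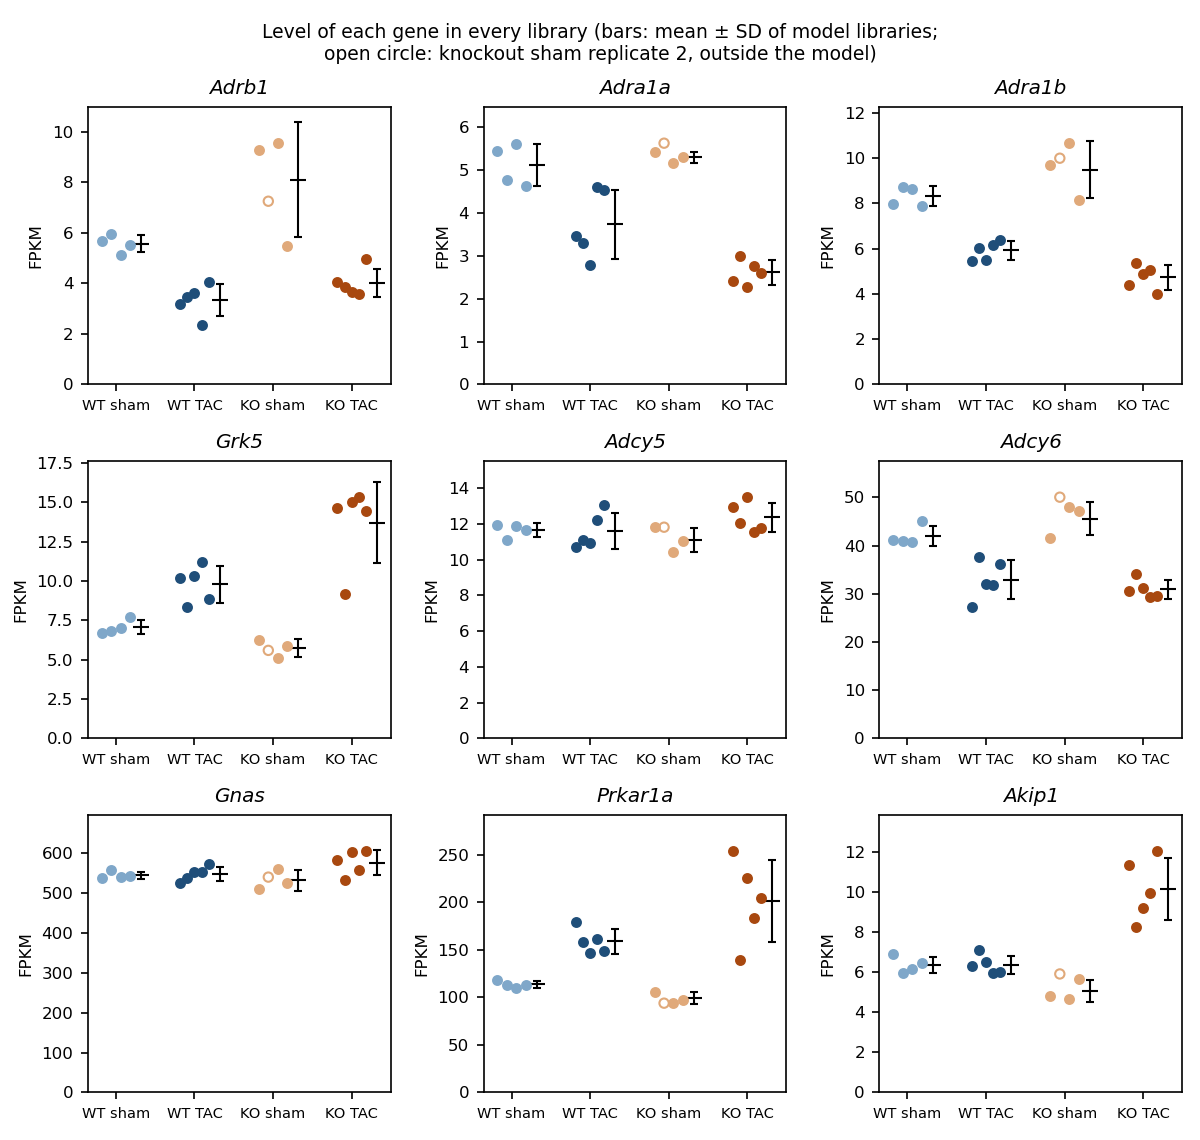
Level in FPKM (vertical axis, linear, from 0) of the 9 genes in each of the 18 libraries by group. Filled points are libraries in the model, the open circle is knockout sham replicate 2, and bars are mean ± SD. Adrb1, Adra1a, Adra1b and Adcy6 were lower and Grk5 and Prkar1a higher after TAC without overlap in either genotype, and the knockout TAC libraries had the highest Akip1, at 8.27 to 12.0 FPKM.

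Adrb1 (chromosome 19, 56722199 to 56733113, mm10) encodes the beta-1 adrenergic receptor, the main catecholamine receptor of cardiomyocytes. Its level was 5.68, 5.96, 5.13 and 5.52 FPKM in wild-type sham replicates 1 to 4 and 3.18, 3.48, 3.61, 2.35 and 4.06 in wild-type TAC replicates 1 to 5. In knockout sham replicates 1, 3 and 4 it was 9.29, 9.56 and 5.50, with 7.26 in replicate 2 outside the model, and in knockout TAC 4.07, 3.86, 3.65, 3.59 and 4.95. Every TAC library lay below every sham library of its genotype, and knockout sham replicate 4 lay with the wild-type sham libraries while the other knockout sham libraries lay above them. The mean fell by 40.1% in wild type and by 50.4% in knockout. The log2 change was -0.61 ± 0.13 in wild type (adjusted p = 0.0034) and -0.83 ± 0.14 in knockout (adjusted p = 0.000212). In knockout it ranged from -1.06 without knockout sham replicate 4 to -0.71 without knockout sham replicate 3. Between knockout and wild-type sham the difference was 0.44 ± 0.15, which did not pass (adjusted p = 0.18), but passed without knockout sham replicate 4 (0.67, adjusted p = 0.0279). The difference between the responses was -0.22 ± 0.20 and did not pass (adjusted p = 0.581).

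Adra1a (chromosome 14, 66635251 to 66771168) encodes the alpha-1A receptor, which in cardiomyocytes signals through Gq. It was at 5.46, 4.77, 5.61 and 4.63 FPKM in wild-type sham and at 3.46, 3.30, 2.79, 4.62 and 4.53 in wild-type TAC. Knockout sham replicates 1, 3 and 4 had 5.43, 5.17 and 5.31 (replicate 2, 5.63), and knockout TAC libraries 2.42, 3.01, 2.28, 2.76 and 2.59. Wild-type TAC replicates 4 and 5 came close to the lowest wild-type sham library, at 4.63, whereas the highest knockout TAC library was well below the lowest knockout sham library. The log2 change was -0.38 ± 0.10 in wild type (adjusted p = 0.0128) and -0.81 ± 0.11 in knockout (adjusted p = 2.33e-05).

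Adra1b (chromosome 11, 43774606 to 43901210) encodes the alpha-1B receptor and had the tightest groups of the 3 receptor genes after TAC in wild type. It was at 7.99, 8.74, 8.65 and 7.90 FPKM in wild-type sham and at 5.47, 6.04, 5.52, 6.18 and 6.39 in wild-type TAC. In knockout it was at 9.67, 10.66 and 8.14 in sham replicates 1, 3 and 4 (replicate 2, 9.996) and at 4.39, 5.38, 4.88, 5.05 and 3.98 after TAC. No knockout TAC library reached the lowest wild-type TAC library. The mean fell by 28.9% in wild type and by 50.1% in knockout, with log2 changes of -0.43 ± 0.08 (adjusted p = 0.0011) and -0.87 ± 0.09 (adjusted p = 9.34e-07).

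After TAC both alpha-1 receptor genes were lower in knockout than in wild type. The difference was -0.38 ± 0.10 for Adra1a (adjusted p = 0.0197) and -0.27 ± 0.08 for Adra1b (adjusted p = 0.0281), whereas Adrb1 was at 0.22 ± 0.13 and did not pass (adjusted p = 0.283). The Adra1a call was lost without wild-type TAC replicate 4 (adjusted p = 0.0553), wild-type TAC replicate 5 (0.0537) or knockout TAC replicate 1 (0.053), and the Adra1b call without wild-type TAC replicates 2, 4 or 5 or knockout TAC replicates 1 or 5 (adjusted p = 0.0552 to 0.0745). Without the filter on low values the Adra1b call was also lost (adjusted p = 0.053). Both calls were lost with only the TAC groups in the fit (adjusted p = 0.0573 for Adra1a and 0.0505 for Adra1b). Both were also lost with a term for the library set, which leaves wild-type TAC replicate 5 as the 1 wild-type library compared. In sham the alpha-1 genes did not pass between genotypes. Nor did the difference between the TAC responses pass, at -0.42 ± 0.15 for Adra1a (adjusted p = 0.144) and -0.44 ± 0.12 for Adra1b (adjusted p = 0.0716). The Adra1b response differed past the threshold without knockout TAC replicate 2 (-0.48, adjusted p = 0.0257), without the pair of TAC libraries nearest to sham (-0.45, adjusted p = 0.0459) and with all 18 libraries (-0.46, adjusted p = 0.0402).

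Other adrenergic receptor genes were low. Adra1d, the alpha-1D gene, had 1.49 ± 0.117 FPKM in wild-type sham hearts and 1.36 ± 0.370 in wild-type TAC hearts, and 1.61 ± 0.18 and 1.32 ± 0.253 in knockout. It did not pass in any comparison. Adra2a, Adra2b, Adra2c and Adrb3 were under the filter, and Adrb3, the beta-3 receptor gene, was listed at 0 in all 5 knockout TAC libraries. FPKM is scaled by length, so levels may be compared between genes: Adra1b was above Adra1a in every group mean. The ratio of Adra1a to Adra1b was 0.616 ± 0.0616 in wild-type sham and 0.555 ± 0.065 in knockout TAC, and its ranges overlapped across all groups. The ratio of Adrb1 to Adra1a was 0.915 to 1.25 in wild-type sham, 0.509 to 1.30 in wild-type TAC, 1.04 to 1.85 in knockout sham and 1.28 to 1.91 in knockout TAC.

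**Figure D2:**
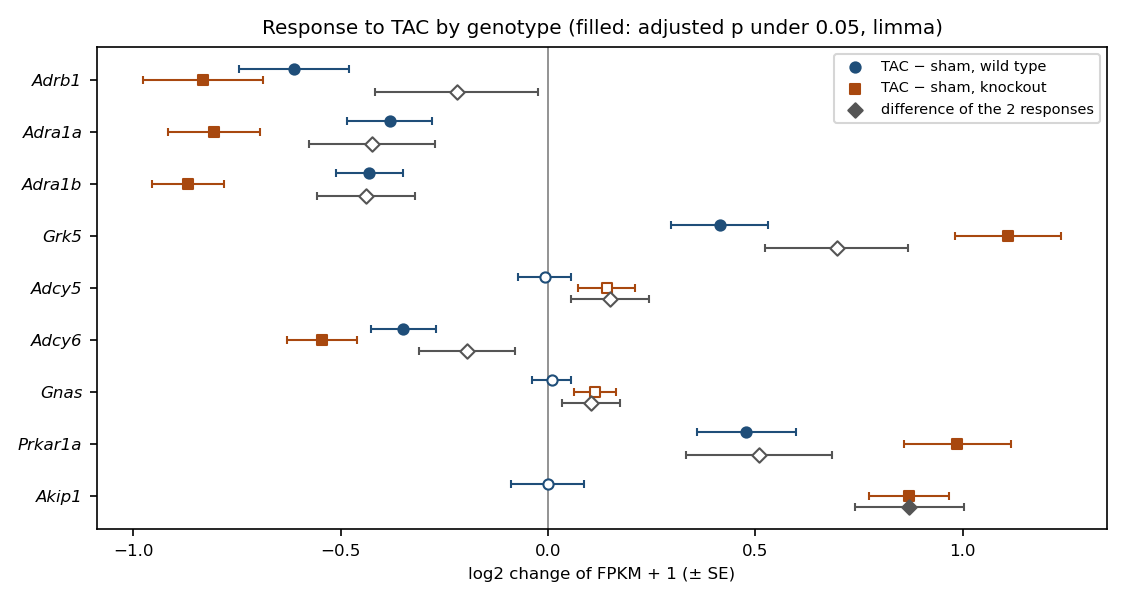
Log2 change of FPKM + 1 (horizontal axis, ± SE) after TAC in wild type (circles) and knockout (squares), and the difference between these responses (diamonds). Filled symbols passed an adjusted p of 0.05 in limma. All 9 genes had the larger absolute change in knockout, and the difference itself passed for Akip1 alone.

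Grk5 (chromosome 19, 60889749 to 61095968) encodes a G protein-coupled receptor kinase that desensitises adrenergic receptors and, in the nucleus of cardiomyocytes, acts on a histone deacetylase. It was at 6.71, 6.85, 7.03 and 7.71 FPKM in wild-type sham and at 10.22, 8.36, 10.33, 11.20 and 8.86 in wild-type TAC. Knockout sham replicates 1, 3 and 4 had 6.22, 5.09 and 5.90 (replicate 2, 5.60), and knockout TAC libraries 14.65, 9.18, 15.01, 15.33 and 14.43. The knockout TAC libraries other than replicate 2 lay above all wild-type TAC libraries, and replicate 2 lay among them. The rise was 0.41 ± 0.12 in wild type (adjusted p = 0.0171) and 1.11 ± 0.13 in knockout (adjusted p = 3.72e-06). After TAC the knockout was higher by 0.43 ± 0.11 (adjusted p = 0.0191). That call was lost without knockout TAC replicate 1 (adjusted p = 0.054) or knockout TAC replicate 4 (adjusted p = 0.0516) and with only the TAC groups in the fit (0.0545). It was also lost with the library set term, which leaves 1 wild-type TAC library in the comparison. The responses differed by 0.70 ± 0.17, which did not pass (adjusted p = 0.0616), but did without knockout TAC replicate 2 (0.82, adjusted p = 0.00115) and with a block for the replicate number (0.78, adjusted p = 0.0166). They also did with all 18 libraries, which adds knockout sham replicate 2 with its joined name (0.70, adjusted p = 0.031). The same held without the pair of TAC libraries nearest to sham, which includes knockout TAC replicate 2 (0.79, adjusted p = 0.00188). These runs are not independent of the main test.

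Grk2, which encodes another receptor kinase of the heart, stayed between 17.1 and 21.2 FPKM in all libraries of the model. Its TAC changes were 0.03 ± 0.06 in wild type (adjusted p = 0.797) and -0.02 ± 0.07 in knockout (adjusted p = 0.813), with 95% intervals of -0.11 to 0.16 and -0.17 to 0.12. The ratio of Grk5 to Grk2 was 0.331 to 0.389 in wild-type sham, 0.417 to 0.544 in wild-type TAC, 0.256 to 0.364 in knockout sham and 0.479 to 0.867 in knockout TAC. Among the other receptor kinases and arrestins, 0 of 5 tested genes passed in wild type in limma, with 1, Arrb1, at an unadjusted p under 0.05. In knockout Arrb1, a beta-arrestin gene, rose (0.45 ± 0.09) and Grk6 fell (-0.31 ± 0.09). In wild type they were at 0.19 ± 0.08 and -0.17 ± 0.08, and the difference between responses did not pass for either. Of all tested genes 21.9% were called in wild type and 38.8% in knockout. Part of Grk5 overlaps Zfp950 on the opposite strand, and whether the counting used strand is not known from the labels. Zfp950 was at a mean of 2.55 to 2.72 FPKM in the 4 groups.

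Gnas, the most abundant of the 9 genes, encodes the stimulatory G protein alpha subunit (chromosome 2, 174284320 to 174346744). It ranged from 538.4 to 557.2 FPKM in wild-type sham, 525.4 to 572.5 in wild-type TAC, 509.2 to 561.5 in knockout sham and 531.5 to 605.0 in knockout TAC. These ranges overlapped. The TAC change was 0.01 ± 0.05 in wild type (95% interval -0.09 to 0.11) and 0.11 ± 0.05 in knockout (95% interval 0.01 to 0.22, adjusted p = 0.0881). The knockout change passed without knockout sham replicate 3 (0.15, adjusted p = 0.0485) or knockout TAC replicate 2 (0.14, adjusted p = 0.0295), and without the pair of TAC libraries nearest to sham (0.14, adjusted p = 0.027). Gnas is an imprinted locus with several first exons and an antisense gene, Nespas, and the table gives 1 value for all its transcripts.

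Among the other G protein subunits, 3 of 13 tested genes rose in wild type and 0 fell, and in knockout 7 rose and 1 fell. Beside these counts, 21.9% of all tested genes were called in wild type and 38.8% in knockout. Gnao1, which encodes an inhibitory-class alpha subunit, rose most, by 1.06 ± 0.12 in wild type and 1.53 ± 0.13 in knockout, with a level of 7.26 ± 0.257 FPKM in sham and 16.4 ± 2.61 after TAC in wild type, and 6.17 ± 0.939 and 19.7 ± 3.28 in knockout. Gnai3, an inhibitory alpha subunit gene, rose by 0.26 ± 0.09 in wild type and 0.25 ± 0.09 in knockout. Gnb1, a beta subunit gene, rose by 0.19 ± 0.05 in wild type and 0.31 ± 0.06 in knockout. In knockout Gng12, a gamma subunit gene, rose by 0.36 ± 0.08. In wild type it was at 0.09 ± 0.07, which did not pass, nor did the difference between its responses. Gnai2, an inhibitory alpha subunit gene, was the 1 gene of this list that differed between genotypes after TAC (0.21 ± 0.07, adjusted p = 0.0475).

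The cardiomyocyte cyclase genes responded differently to TAC. Adcy6 (chromosome 15, 98589973 to 98610076) was at 41.0, 41.0, 40.8 and 45.1 FPKM in wild-type sham and at 27.2, 37.6, 32.0, 31.8 and 36.1 in wild-type TAC. In knockout it was at 41.6, 48.0 and 47.2 in sham replicates 1, 3 and 4 (replicate 2, 50.02) and at 30.6, 34.1, 31.2, 29.3 and 29.6 after TAC. All TAC libraries lay below all sham libraries. It fell by 0.35 on the log2 scale in wild type (adjusted p = 0.00407) and by 0.54 in knockout (adjusted p = 7.04e-05), and the genotypes did not differ past the threshold in sham, after TAC or in the response.

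Adcy5 (chromosome 16, 35154877 to 35305738) lay between 10.5 and 13.5 FPKM in all libraries of the model. Its ranges overlapped in every comparison, and its TAC change was -0.01 ± 0.06 in wild type (95% interval -0.14 to 0.13) and 0.14 ± 0.07 in knockout (95% interval -0.003 to 0.29, adjusted p = 0.114). The ratio of Adcy5 to Adcy6 was 0.278 ± 0.0165 in wild-type sham and 0.356 ± 0.0396 in wild-type TAC, and 0.245 ± 0.0343 in knockout sham and 0.401 ± 0.0313 in knockout TAC. Every TAC library had a higher ratio than every sham library of its genotype. Of the other cyclases 3 were tested. Adcy7 rose in both genotypes (0.88 ± 0.14 and 1.20 ± 0.16), with 2.04 ± 0.298 FPKM in sham and 4.64 ± 1.07 after TAC in wild type, and 2.09 ± 0.524 and 6.14 ± 1.31 in knockout, and Adcy9 fell in both (-0.35 ± 0.07 and -0.43 ± 0.07).

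**Figure D3:**
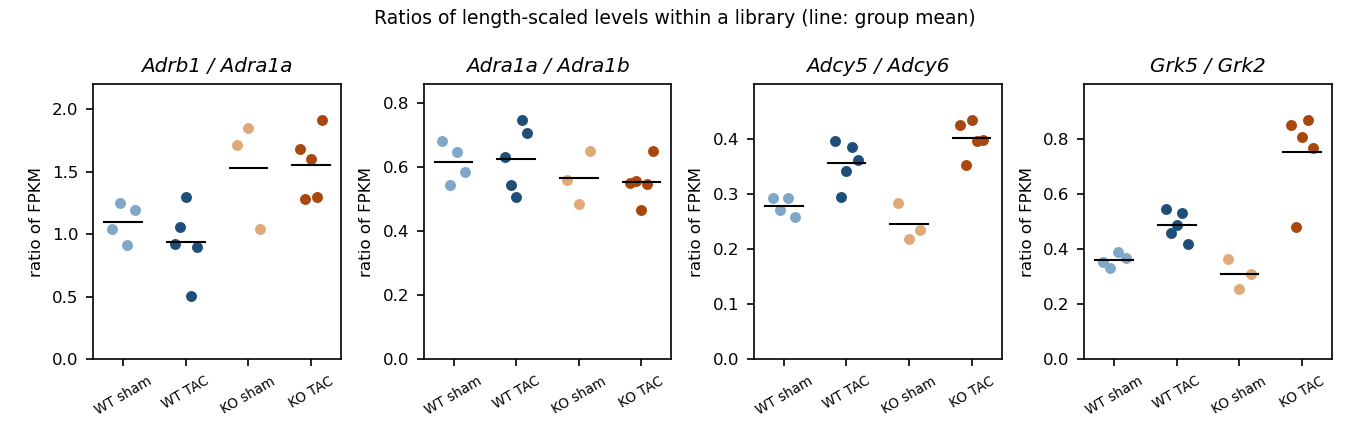
Ratios of FPKM within each library (vertical axes, from 0) for 4 gene pairs by group. Points are libraries of the model and lines are group means. The ratio of Adcy5 to Adcy6 was 0.258 to 0.292 in wild-type sham and 0.353 to 0.433 in knockout TAC, and the ratio of Grk5 to Grk2 reached 0.867 in knockout TAC.

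Prkar1a (chromosome 11, 109649405 to 109669656) encodes the RI-alpha regulatory subunit, which holds the PKA catalytic subunit inactive until cAMP binds. It was at 118.5, 112.5, 109.8 and 113.1 FPKM in wild-type sham and at 179.5, 158.5, 146.3, 160.8 and 149.0 in wild-type TAC. Knockout sham replicates 1, 3 and 4 had 105.9, 94.3 and 96.8 (replicate 2, 93.8), and knockout TAC libraries 253.5, 139.2, 224.9, 183.0 and 204.2. Knockout TAC replicate 2 was below all wild-type TAC libraries, and the other knockout TAC libraries were above them. The rise was 0.48 ± 0.12 in wild type (adjusted p = 0.00836) and 0.99 ± 0.13 in knockout (adjusted p = 1.6e-05). After TAC the genotypes differed by 0.31 ± 0.11, which did not pass (adjusted p = 0.0815) but passed without knockout TAC replicate 2 (0.44, adjusted p = 0.00164) and without the pair of TAC libraries nearest to sham (0.42, adjusted p = 0.00472). The responses differed by 0.51 ± 0.18 and did not pass (adjusted p = 0.135), and passed without that library (0.63, adjusted p = 0.00742) and without the pair (0.61, adjusted p = 0.0149).

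The catalytic subunit gene Prkaca was at 110.1 ± 2.78 FPKM in wild-type sham and 100.7 ± 6.96 after TAC, and at 122.6 ± 9.68 and 113.3 ± 5.23 in knockout. It did not pass for TAC in either genotype and was higher in knockout than in wild type after TAC (0.17 ± 0.05, adjusted p = 0.0493). The share called over all tested genes was 21.9% in wild type and 38.8% in knockout. Of the 6 tested PKA subunits and inhibitors other than Prkar1a, 0 rose and 2 fell in each genotype. These were Pkia and Pkig, which encode small peptide inhibitors of the PKA catalytic subunit (Pkia -0.30 ± 0.07 and -0.47 ± 0.07, Pkig -0.36 ± 0.08 and -0.35 ± 0.08). After TAC Pkia was lower in knockout than in wild type (-0.31 ± 0.06, adjusted p = 0.00605).

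Akip1 (chromosome 7, 109703690 to 109712189) encodes A-kinase interacting protein 1, a small protein that binds the PKA catalytic subunit. It was the 1 gene of the 9 whose response to TAC differed between genotypes past the threshold. Its level was 6.90, 5.97, 6.14 and 6.47 FPKM in wild-type sham and 6.30, 7.09, 6.49, 5.98 and 5.99 in wild-type TAC. Knockout sham replicates 1, 3 and 4 had 4.83, 4.68 and 5.68 (replicate 2, 5.91), and knockout TAC libraries 11.32, 8.27, 9.17, 9.93 and 12.03. The wild-type groups overlapped throughout, and every knockout TAC library exceeded every other library. The log2 change was -0.0007 ± 0.09 in wild type (95% interval -0.19 to 0.19, adjusted p = 0.997) and 0.87 ± 0.10 in knockout (adjusted p = 2.41e-06).

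The difference between these Akip1 responses was 0.87 ± 0.13 (adjusted p = 0.0124), where 0.93% of all tested genes were called (0.377% higher, 0.553% lower), and it ranked 3 of 11937 genes by p. It passed without each of the 17 libraries in turn (0.81 to 0.94, adjusted p = 0.000762 to 0.0431) and under the 7 other alternatives (adjusted p = 0.00132 to 0.0298). After TAC Akip1 was 0.59 ± 0.08 higher in knockout (adjusted p = 0.00051). With a term for the library set the difference was 0.66. That value rests on 1 wild-type library, TAC replicate 5, which had 5.99 FPKM against 8.27 to 12.03 in knockout TAC. In sham the knockout libraries of the model lay below the wild-type ones without overlap, and replicate 2, outside the model, at 5.91, lay just under the lowest wild-type sham library at 5.97. That difference did not pass (-0.28 ± 0.10, adjusted p = 0.195). An absence of overlap in sham was also seen for Grk5 and Prkar1a, which makes 3 of the 9 genes, and for 15.4% of all tested genes. In sham 0 of the 9 genes were called between genotypes by limma, where 1.26% of all tested genes were (0.645% higher, 0.62% lower). At an unadjusted p under 0.05 there were 2, Adrb1 and Akip1.

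Between the genotypes after TAC 4 of the 9 genes passed: Grk5 and Akip1 were higher in knockout, and Adra1a and Adra1b were lower. Of all tested genes 11.3% were called in this comparison (6.53% higher, 4.78% lower). The number fell to 3 without the filter on low values and without wild-type TAC replicate 2, knockout TAC replicate 4 or knockout TAC replicate 5, to 2 without wild-type TAC replicate 4 or wild-type TAC replicate 5 and to 1, Akip1, without knockout TAC replicate 1, with only the TAC groups in the fit, or with a term for the library set, and it was 5, with Prkar1a, without knockout TAC replicate 2 or the pair of TAC libraries nearest to sham. The libraries did not overlap for 2 genes, Adra1b and Akip1, against 6.69% of all tested genes. All 9 genes had the larger absolute TAC change in knockout, which was the case for 67.1% of all tested genes.

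The promoters were searched for the cAMP response element, the 8-base site that factors of the CREB family bind. RefSeq promoter windows (GRCm38.p6, 250 bases before to 50 after a start) were at hand for 7 of the 9 genes. The full element TGACGTCA and its part TGACG, which lies inside the full element on both strands, were looked for on both strands. A gene was counted if any of its windows held the site. Prkar1a had 6 windows, Gnas 4, Adra1b 2, and Adrb1, Akip1, Grk5 and Adcy5 had 1 each. Prkar1a was the 1 gene of the 7 with the full element, held by 3.48% of tested genes with a window. Some of the Prkar1a windows lacked it. TGACG was found for Prkar1a, Adrb1 and Gnas, and in 35.7% of tested genes with a window. The 250 bases before a start are printed for Prkar1a with the full element, for Adrb1 with the part alone, and for Akip1, whose response differed between genotypes and where neither was found. Capitals mark TGACGTCA or TGACG.
Prkar1a, chr11:109650699-109650948, plus strand: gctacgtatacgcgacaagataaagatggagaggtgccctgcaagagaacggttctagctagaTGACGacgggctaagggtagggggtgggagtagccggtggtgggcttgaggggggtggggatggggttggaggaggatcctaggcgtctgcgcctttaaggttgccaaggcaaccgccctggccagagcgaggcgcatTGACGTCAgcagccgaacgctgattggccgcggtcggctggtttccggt
Adrb1, chr19:56721867-56722116, plus strand: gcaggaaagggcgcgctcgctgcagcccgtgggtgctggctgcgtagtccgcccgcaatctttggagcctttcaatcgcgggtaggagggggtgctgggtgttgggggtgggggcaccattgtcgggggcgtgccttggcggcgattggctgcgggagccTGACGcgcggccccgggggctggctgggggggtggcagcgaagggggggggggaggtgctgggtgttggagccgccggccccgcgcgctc
Akip1, chr7:109703428-109703677, plus strand: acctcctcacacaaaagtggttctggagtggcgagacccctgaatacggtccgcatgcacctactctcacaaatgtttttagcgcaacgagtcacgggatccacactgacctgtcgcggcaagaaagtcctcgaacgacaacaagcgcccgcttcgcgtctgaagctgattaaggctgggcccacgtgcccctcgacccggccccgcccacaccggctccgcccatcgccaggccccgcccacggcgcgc

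The element of Prkar1a began 49 bases before the start site of this transcript, and the match of Adrb1 began 90 bases before its start. Of the members that hold TGACG, Prkar1a rose and Adrb1 fell after TAC, and Gnas did not pass in either genotype. Whether the site has a part in these changes was not tested. A match describes the sequence and does not show binding.

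The members' profiles over the 17 libraries of the model were compared with those of all tested genes by the root mean square difference of centred log2 values. Prkar1a was the second nearest to Grk5 (0.144), while Arhgdig was the nearest to Prkar1a (0.112). Dync1li1, a dynein subunit gene, was the nearest to Grk5 (0.136) and the second nearest to Prkar1a (0.133). For scale, the profile of Grk5 itself had a root mean square of 0.443. Nearest to Adra1a was Dbt (0.08), of branched-chain amino acid breakdown, and near Adra1b stood Qsox2 (0.092) and Sdha (0.105), a subunit of respiratory complex II. Adcy6 had Myh6, the adult myosin heavy chain gene, among its 3 nearest (0.105). Ulk3 was nearest to Akip1 (0.105). Smim5 was nearest to Adrb1 (0.208), whose own profile had a root mean square of 0.423.

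Further genes of the pathway were counted in 11 lists of 118 genes, of which 94 were tested. In wild type 12 rose and 16 fell after TAC (29.8%, against 21.9% of all tested genes), and in knockout 25 rose and 19 fell (46.8%, against 38.8%). Between genotypes 0 of 94 passed in sham in limma, with 16 at an unadjusted p under 0.05, 12 passed after TAC (12.8%, against 11.3%), and 1, Tnni3, passed for the difference between responses (-0.42 ± 0.10, adjusted p = 0.0432).

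**Figure D4:**
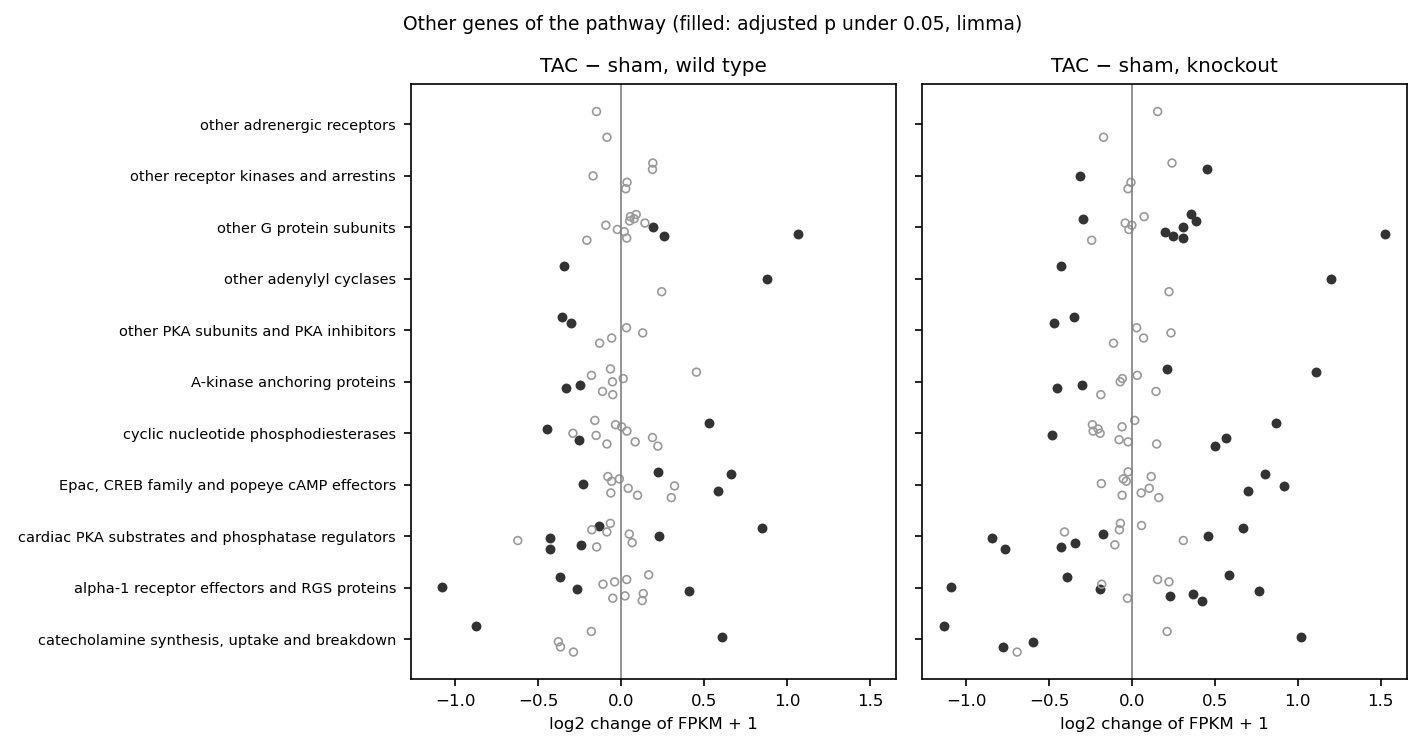
Log2 change of FPKM + 1 after TAC (horizontal axis) of the 94 tested pathway genes by list (vertical axis), in wild type (left) and knockout (right). Filled points passed an adjusted p of 0.05 in limma: 28 genes in wild type and 44 in knockout.

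Genes whose products break down cAMP or anchor PKA moved in both directions. Of 13 phosphodiesterases 1 rose and 2 fell in wild type, and 3 rose and 1 fell in knockout. Of all tested genes 21.9% were called in wild type and 38.8% in knockout, the background for the counts of each list. Pde8a, a cAMP-specific phosphodiesterase gene, rose in both (0.53 ± 0.08 and 0.87 ± 0.09) and was higher in knockout after TAC (0.29 ± 0.08). Pde4d (-0.45 ± 0.10) and Pde3a (-0.25 ± 0.08) fell in wild type. In knockout they were at -0.20 ± 0.11 and -0.08 ± 0.09, which did not pass. Pde4a fell (-0.48 ± 0.07) and Pde3b rose (0.56 ± 0.12) in knockout. In wild type Pde4a and Pde3b were at -0.15 ± 0.06 and 0.19 ± 0.11, which did not pass. The difference between responses did not pass for any of these genes (limma, adjusted p = 0.0861 to 0.4375). Pde4a was also lower in knockout than in wild type after TAC (-0.21 ± 0.06). Of 9 anchoring proteins, which tether PKA to its substrates, Akap7 and Akap8 fell in wild type (-0.33 ± 0.08 and -0.25 ± 0.07) and in knockout (-0.45 ± 0.09 and -0.30 ± 0.08). Akap12 rose in knockout (1.11 ± 0.33), as did Akap13 (0.21 ± 0.08), and Akap1 was lower in knockout after TAC (-0.20 ± 0.06). In wild type Akap12 and Akap13 were at 0.45 ± 0.30 and -0.06 ± 0.07, which did not pass. The difference between responses did not pass for either.

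Among 12 further cAMP effectors 3 rose and 1 fell in wild type, and 3 rose and 0 fell in knockout. Crem, a cAMP-responsive transcription factor gene, rose in both (0.58 ± 0.14 and 0.70 ± 0.15), as did Popdc3, which encodes a cAMP-binding popeye protein (0.66 ± 0.13 and 0.80 ± 0.14). Bves, of the same family, rose in wild type (0.22 ± 0.07), and Creb3l2 rose in knockout (0.92 ± 0.13). Bves was at -0.02 ± 0.08 in knockout and Creb3l2 at 0.32 ± 0.12 in wild type, which did not pass. Nor did the difference between responses pass for either gene. After TAC Popdc2 was higher (0.27 ± 0.06) and Rapgef4, which encodes the cAMP sensor Epac2, lower (-0.28 ± 0.06) in knockout.

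Of 13 PKA substrates and phosphatase genes 2 rose and 4 fell in wild type, and 2 rose and 5 fell in knockout. Pln, the phospholamban gene, had 2893 ± 57.9 FPKM in wild-type sham and 2156 ± 160 after TAC, a fall of -0.43 ± 0.07. In knockout it had 3001 ± 116 and 1771 ± 208, a fall of -0.77 ± 0.08. Tnni3, the cardiac troponin I gene, fell by 0.43 in wild type and 0.84 in knockout on the log2 scale. Hspb6, the small heat shock protein Hsp20, rose in both (0.85 ± 0.11 and 0.67 ± 0.12). After TAC Pln (-0.29 ± 0.07) and Tnni3 (-0.24 ± 0.06) were lower and Mybpc3, which encodes myosin-binding protein C, higher (0.23 ± 0.07) in knockout.

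On the alpha-1 branch 1 of 12 tested effector and RGS genes rose and 3 fell in wild type, and 5 rose and 3 fell in knockout. Prkcd, a protein kinase C gene, rose in both (0.41 ± 0.08 and 0.76 ± 0.09), and Prkca (0.37 ± 0.06) and Plcb1 (0.42 ± 0.10), of protein kinase C and phospholipase C, rose in knockout. In wild type Prkca and Plcb1 were at 0.13 ± 0.06 and 0.13 ± 0.095, which did not pass. The difference between responses did not pass for either. Rgs2, a brake on Gq signalling, fell in wild type (-1.08 ± 0.26) and in knockout (-1.09 ± 0.28), and Prkce, a protein kinase C gene, fell in both (-0.27 ± 0.07 and -0.19 ± 0.07). Of the 6 tested catecholamine genes Maob, a monoamine oxidase, fell in both genotypes (-0.87 ± 0.12 and -1.14 ± 0.135). Dbh, dopamine beta-hydroxylase of sympathetic nerves, was at 1.35 ± 0.416 and 0.808 ± 0.197 FPKM in wild type, which did not pass (adjusted p = 0.0519), and fell in knockout from 1.43 ± 0.462 to 0.407 ± 0.119 (-0.78 ± 0.14). Th, which encodes tyrosine hydroxylase, was listed at 0 in every library of the model.

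Markers of cell types moved with surgery too. The summed level of 7 cardiomyocyte markers was 25465 to 26967 FPKM in wild-type sham and 19768 to 23071 in wild-type TAC, and 25556 to 29205 and 19089 to 20687 in knockout. Of these 7 genes 1 rose and 4 fell in wild type, and 1 rose and 5 fell in knockout. Fibroblast markers (5 genes) summed to 279 to 363 FPKM in sham and 311 to 511 after TAC in wild type, and to 259 to 317 and 392 to 490.3 in knockout, where 4 of the 5 rose. In wild type 1 rose and 1 fell. Macrophage and leukocyte markers (5 genes) summed to 60.6 to 101 and 72.1 to 107 in wild type, and to 71.2 to 74.3 and 89.2 to 125 in knockout, where 2 rose. Sympathetic neuron and Schwann cell markers (6 genes) summed to 4.55 to 5.94 and 2.35 to 3.72 in wild type, and to 3.15 to 5.40 and 2.27 to 3.04 in knockout, with Th listed at 0 throughout. Of 5 endothelial markers 1, Pecam1, rose after TAC in knockout (0.33 ± 0.08), and the median log2 change of the 5 was 0.0155. Of 6 smooth muscle and pericyte markers 1, Cspg4, rose in knockout (0.61 ± 0.10), and the median of the 6 was 0.0378. In wild type 0 genes of either list passed. Of 5 adipocyte markers 1, Cidea, was tested, and it rose in wild type (0.37 ± 0.09) and in knockout (0.37 ± 0.10). The others were under the filter on low values, with Ucp1 listed at 0 in every library of the model. A change in adipocytes cannot be read from Cidea alone. Between the genotypes after TAC 2 of 7 cardiomyocyte markers were lower in knockout, Myh6 (-0.23 ± 0.05) and Tnni3 (-0.24 ± 0.06). In the same comparison 1 of 5 fibroblast markers, Col1a1, was higher in knockout (0.95 ± 0.22), and the median difference of the 5 was 0.0264. Cidea was also higher in knockout (0.29 ± 0.09). The part of these shifts in the changes of the 9 genes, after TAC and between genotypes, was not tested, and in bulk heart RNA fewer cells of a type and less RNA per cell cannot be told apart. Atrial markers summed to at most 3.18 FPKM in any library of the model, with Bmp10 listed at 0 in 3 of the 4 groups.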

How the data were processed

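Heart RNA was measured in 18 libraries, per the labels from total RNA with a SMARTER mRNA-seq kit. The authors deposited 1 table of 34714 genes as FPKM values normalized to length and library size; the unit was inferred from the values, since multiplied by transcript length they summed to 980377 to 1049290 per library. FPKM and RPKM cannot be told apart here. The build was mm10 per the submitters' processing notes; the sources used here do not give the aligner, counter or strand setting. Depth is unknown, since low values showed no steps of whole reads, so no counting interval is given. Between 11027 and 11377 genes reached 1 FPKM per library.

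Genes that reached 1 FPKM in 3 or more libraries were analysed on the log2(FPKM + 1) scale, and limma 3.58.1 in R 4.3.3 was fitted with a mean per group (intensity trend, robust moderation) to 17 libraries: in wild type 4 sham and 5 TAC, in knockout 3 and 5. The pipeline was tested on simulated data. Coordinates are from GENCODE M21. The 9 genes, the lists and the 2 library sets were chosen with earlier results of these data known. All 9 genes are named. From each other list, up to 3 members by smallest adjusted p per TAC comparison and every member called between genotypes were named, with Grk2 always, except for results that are not reported here. Others in the text were chosen after their values were seen. Protein sequences were not used here.

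Replicate numbers are in the titles only; same-numbered libraries of different groups did not deviate together, so no block was used. Alternatives were all 18 libraries, a replicate block, a pseudocount of 0.1, no filter, median-ratio scaling, only the groups compared, leaving out each library, leaving out the pair of TAC libraries nearest to sham, and a term for the library set.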

Additional observations from a re-analysis of the deposited data

Results flagged for a closer look

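In 27 sets of 4 or 5 libraries (the 9 genes in the groups large enough), the highest or lowest library was examined for its gap to the nearest other, and 2 were farther apart than Dixon's 95% limit; chance gives about 1 in 20. Grk5 in knockout TAC replicate 2 was at 9.18 FPKM, against 14.43 to 15.33 in the other 4 (gap over range 0.853). Adcy6 in wild-type sham replicate 4 was at 45.13 FPKM, against 40.8 to 41.04 in the other 3 (gap over range 0.945).

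The response of Akip1 to TAC differed between genotypes by a test of the difference itself (0.87 on the log2 scale, limma, Benjamini-Hochberg adjusted p = 0.0124), higher in 5 of 5 knockout TAC libraries than in all others.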

How the results depend on the processing

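The TAC changes that passed kept their call and direction in both genotypes under every alternative run, and of those that did not pass Gnas in knockout passed under the 3 alternatives given above. Near-zero wild-type changes that did not pass crossed 0: Gnas was at -0.0075 with the replicate block, and at -0.0061 both without the pair of TAC libraries nearest to sham and with the library set term, Akip1 was at 0.0178 under the latter settings, and with median-ratio scaling Adcy5 was at 0.0042 and Akip1 at 0.0111. Leaving out libraries gave -0.0483 to 0.0174 for Adcy5, -0.0061 to 0.0248 for Gnas and -0.0348 to 0.0332 for Akip1.

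Comparisons between genotypes depended more on the settings. In sham 151 genes were called, 227 with all 18 libraries, 12 with the library set term and 50 to 169 leaving out libraries, with 0 to 1 of the 9 genes; with the set term Adra1a was at -0.254 and Adcy6 at -0.0571. After TAC 1350 genes were called (4 of the 9, and 3 without the filter), 814 (and 1 of the 9) with only the groups compared, 243 (and 1) with the set term, and 663 to 1833 (1 to 5 of the 9) leaving out libraries; with the set term Adrb1 was at -0.0171 and Adcy5 at -0.0749. For the difference between responses 111 genes were called (1 of the 9), 300 (3) with all 18 libraries, 345 (2) with the replicate block, 16 without the filter, 199 with median-ratio scaling, 460 (4) without the pair of TAC libraries nearest to sham, 17 with the set term and 7 to 597 (1 to 4 of the 9) leaving out libraries. The causes were not tested. The replicate block changed no other call of the 9 genes than that of Grk5, given above; 3 of 17 libraries correlated best with their own number, and same-numbered pairs had r from -0.238 to 0.157. Depth is unknown, so no limit from counting could be given.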
